A study of Mus musculus with 6 samples.

Results

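The 10 genes described here encode surface markers and adhesion molecules of stromal cells: Vcam1, Icam1, Alcam, Mcam, Ly6a, Thy1, Cd44, Eng, Pdgfra and Pdgfrb. They were chosen by name, with earlier results of these data known. Each probe set that carries exactly 1 of these symbols in the array's probe-to-gene table was used. That gave 22 of the 45037 probe sets tested, for 9 of the 10 genes. Ly6a had no probe set with that symbol in the table and is not analysed here. Vcam1 had 3 probe sets, Alcam 5, Cd44 4, Pdgfra 3, Eng 2 and Pdgfrb 2, and Icam1, Mcam and Thy1 had 1 each. Probe sets are numbered here by brightness within a gene, so that probe set 1 is the brightest and represents the gene. The leading ones are 1448162_at for Vcam1, 1424067_at for Icam1, 1426300_at for Alcam, 1416357_a_at for Mcam, 1434376_at for Cd44, 1417271_a_at for Eng, 1421917_at for Pdgfra and 1436970_a_at for Pdgfrb.

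The arrays came from purchased mouse mesenchymal stem cells, whose strain is not given in the sources used here. Irradiated cultures received pulsed broadband terahertz radiation for 12 h, centred near 10 THz, with 35 fs pulses at 1 kHz and an average power density of 1 mW/cm2. Control cultures stood next to the irradiated ones without radiation, and both were kept at 26 to 27 °C. Each of 3 independent experiments gave 1 irradiated and 1 control array, 6 arrays in all. Both groups shared a fat-inducing medium with 5% serum, to which rosiglitazone at 1 µM, insulin at 5 µg/ml, IBMX at 100 µM and dexamethasone at 1 µM were added again 48 h before irradiation. The comparison asks which transcripts of these surface proteins differ between an irradiated culture and the control beside it. Levels are the deposited log2 values of a probe set, and differences are irradiated minus control on that log2 scale. With 3 pairs, the few arrays limit how precise any difference is.

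Stromal progenitors have no marker of their own and are recognised by a panel of surface proteins, to which Thy1, Cd44, Eng, Vcam1, Alcam and the PDGF receptors belong. Vcam1, Icam1, Alcam, Mcam and Thy1 are immunoglobulin superfamily proteins. Vcam1 and Icam1 hold leukocytes by binding their integrins and are induced by inflammatory cytokines through NF-kB. Cd44 binds the matrix polymer hyaluronan, Eng is a co-receptor for TGF-beta family ligands, and Pdgfra and Pdgfrb are receptor tyrosine kinases that drive growth and migration of mesenchymal cells. Pdgfra also marks precursors of fat cells.

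All 12 genes of a stromal marker list, Pdgfra and Pdgfrb among them, were expressed. Expressed here means a mean of at least 6 log2 units in either group. That list does not hold Thy1, which was dim, and of 24 other stromal surface markers 18 were expressed. All 8 measured fat cell markers were expressed too, and so were 19 of 20 macrophage markers, with Lyz2 at 14.16 in irradiated and 14.21 in control cultures. Of 12 endothelial markers 3 were expressed, 2 of them the members Eng and Mcam. The other was Egfl7, which counted as expressed through the irradiated cultures alone. Its means were 6.23 in irradiated and 5.88 in control cultures, a difference of 0.35 (limma adjusted p = 0.538). The defining endothelial genes Pecam1 and Cdh5 were dim, with means of 3.87 and 3.76 in irradiated cultures and 4.13 and 3.84 in controls. None of 7 lymphoid markers was expressed. In RNA from whole cultures, fewer cells of a type and less RNA per cell cannot be told apart. Array medians lay between 4.75 and 4.80. The hybridisation controls, transcripts spiked in before hybridisation, gave more signal on the irradiated than on the control array of experiment 3, by 0.502.

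Of the members, Vcam1 was higher in irradiated cultures in each experiment on each of its 3 probe sets. Pdgfrb was lower in each experiment on both of its probe sets, and Alcam was lower on average on all 5. Icam1, Mcam, Cd44, Pdgfra, Eng and Thy1 differed in sign between experiments on their brightest probe set. No member passed Benjamini-Hochberg adjustment over all probe sets in the limma fit, where the share called was 0.0%. The members' adjusted p ran from 0.538 to 0.993. An unadjusted p under 0.05 was found for 6 of the 22 member probe sets (27.3%), beside 8.06% of all probe sets and 11.2% of those expressed. They were the 3 of Vcam1, which were higher (3.86% of all probe sets were called higher), and Alcam 1, Alcam 5 and Pdgfrb 1, which were lower (4.2% of all were called lower). Probe sets of 1 gene are not independent of each other. Counted by the brightest probe set of each gene these were 3 genes of 9, beside 8.31% of all genes. The members were chosen with earlier results of these data known, so a share above that of all probe sets is not evidence about them.

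**Figure D1:**
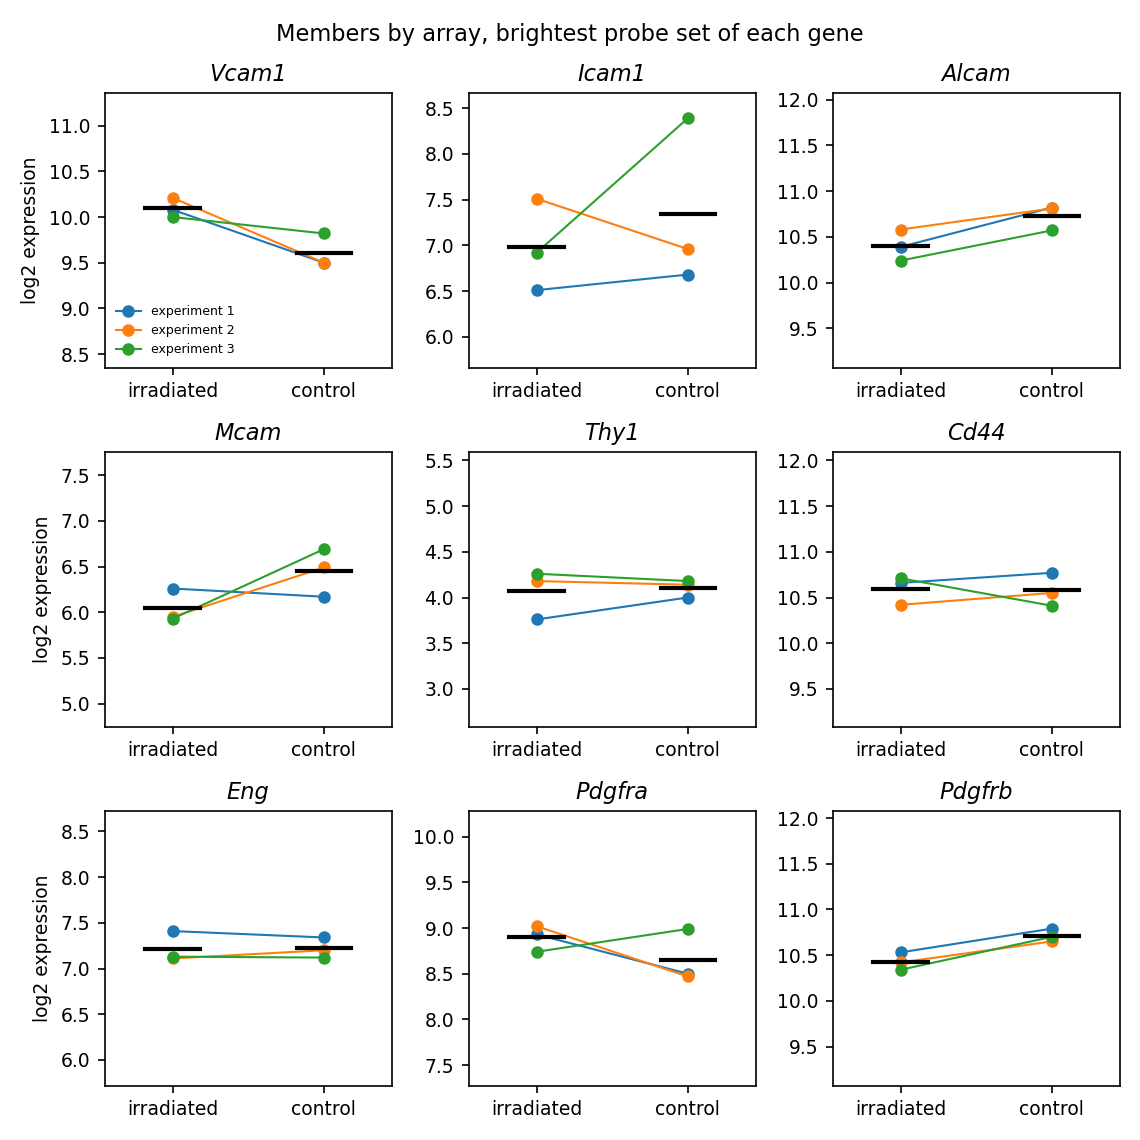
Log2 expression of 9 members on the 6 arrays, by the brightest probe set of each gene. Lines join the irradiated and the control array of an experiment, black bars are group means, and every panel spans the same range of log2 units. The irradiated arrays of Vcam1 lie at 10.00 to 10.21, all above the controls at 9.50 to 9.82, while the lines of Icam1 cross.

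Vcam1 encodes the cell adhesion molecule that the integrin alpha4 beta1 of leukocytes binds. Its probe set 1 read 10.08, 10.21 and 10.00 in irradiated cultures of experiments 1 to 3, against 9.50, 9.50 and 9.82 in their controls. The lowest irradiated value lay above the highest control value. The difference was 0.49 ± 0.13 (SE, 95% interval 0.18 to 0.80), a 1.40-fold higher level (limma unadjusted p = 0.00743, adjusted p = 0.538). By experiment the difference was 0.58, 0.71 and 0.18, so experiment 3 gave the narrowest gap, and its control was the brightest of the 3.

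The other probe sets of Vcam1 were also higher in each experiment. Probe set 2 read 9.90, 9.66 and 9.66 in irradiated cultures, against 9.52, 9.33 and 9.36 in controls. Probe set 3 read 8.36, 8.33 and 7.97 in irradiated cultures, against 7.91, 7.94 and 7.87 in controls. In both the groups did not overlap, though for probe set 3 the gap in experiment 3 was 0.10. Their differences were 0.34 ± 0.09 (SE) and 0.31 ± 0.11 (SE). Probe set 2 gave nearly the same difference in all 3 experiments, 0.38, 0.33 and 0.30, with an SD of 0.0404. Probe sets 1 and 3 varied more, with SDs of 0.276 and 0.187, above the median SD over expressed probe sets of 0.149. Over all probe sets 4.53% had every irradiated array above every control array. With an experiment left out the difference of probe set 1 ran from 0.38 to 0.65, and its unadjusted p was 0.0672 without experiment 1, 0.0657 without experiment 2 and 0.00356 without experiment 3.

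Icam1, which binds the leukocyte integrins that pair with Itgb2, was the member that varied most. It read 6.51, 7.51 and 6.92 in irradiated cultures, against 6.68, 6.96 and 8.39 in controls. The groups overlapped, and the control of experiment 3 stood 1.43 above the next control. The differences by experiment were -0.17, 0.55 and -1.47, with an SD of 1.02 that was wider than that of 99.8% of expressed probe sets. Their mean was -0.36 ± 0.34 (SE, 95% interval -1.18 to 0.45; limma adjusted p = 0.809), and it turned to 0.19 without experiment 3. Within an array, Vcam1 minus Icam1 was higher in irradiated cultures by 0.75, 0.16 and 1.65, a pair named after its values were seen.

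Macrophages also carry Icam1, Vcam1 and Cd44, and their markers differed between arrays. The mean log2 level of the 20 macrophage markers was 10.59, 11.29 and 11.28 in irradiated cultures, against 10.80, 11.23 and 11.47 in controls. Summed on the linear scale their signal ran from 65820 to 103147 in irradiated cultures and from 74508 to 118222 in controls. By mean difference 17 of the 20 markers were lower, beside 8732 of all 18193 genes, with a median of -0.10. Lower in all 3 experiments were 7 of the 20, beside 15.1% of all genes. At an unadjusted p under 0.05, 1 marker was lower and 0 were higher, beside 4.61% and 3.7% of all genes. It was Cd14, at -0.73 ± 0.19 (SE, limma adjusted p = 0.538). The medians over the list by experiment were -0.20, 0.07 and -0.11. The dimmest of the 20 was Cx3cr1, with means of 4.63 in irradiated and 4.47 in control cultures, below the level called expressed and below every array median. The controls of Icam1 and of the marker list had the same order, with experiment 3 highest in both. Vcam1 was higher in all 3 experiments, of which experiments 1 and 3 had the macrophage list lower by its median. Both descriptions rest on 3 arrays per group, and no cause is read from them. The part of macrophages in the differences of Icam1, Vcam1 and Cd44 was not tested.

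**Figure D2:**
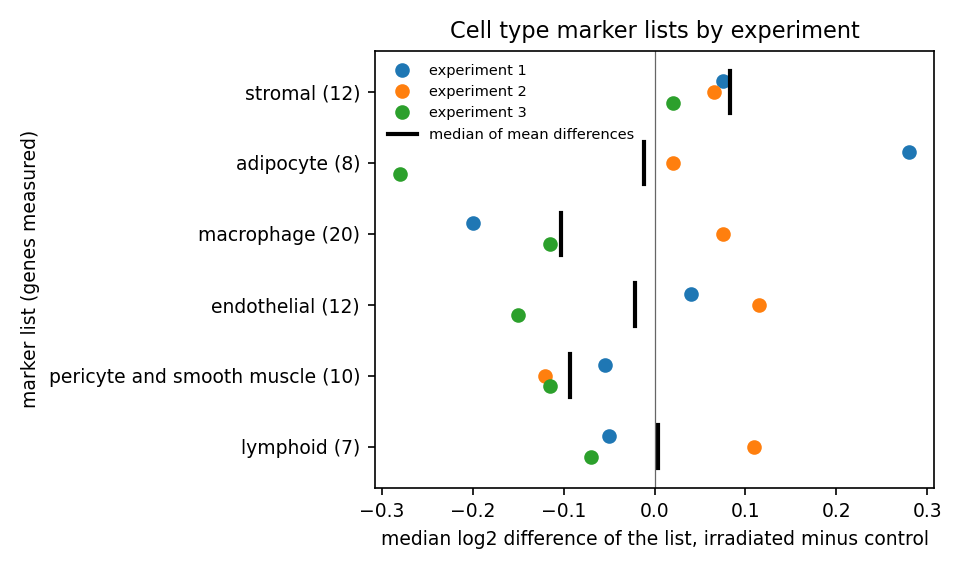
Median log2 difference, irradiated minus control, of 6 lists of cell type markers in each experiment (points), with the median of the genes' mean differences as a bar. The macrophage list lies at -0.20, 0.07 and -0.11 in experiments 1 to 3 and the fat cell list at 0.28, 0.02 and -0.28.

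Alcam encodes an adhesion molecule that binds itself on neighbouring cells and binds Cd6 on T cells. Its probe set 1 read 10.39, 10.58 and 10.24 in irradiated cultures, against 10.82, 10.81 and 10.57 in controls. Each irradiated value was below its own control, and the groups overlapped by 0.01 log2 units, since the irradiated array of experiment 2 was just brighter than the control of experiment 3. The difference was -0.33 ± 0.10 (SE, 95% interval -0.57 to -0.09), a level 1.26-fold lower in irradiated cultures (limma unadjusted p = 0.0134, adjusted p = 0.558). Leaving out an experiment gave -0.38 to -0.28, and the unadjusted p was 0.0882 without experiment 1.

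The 5 probe sets of Alcam gave the same direction in experiments 1 and 2 and parted in experiment 3. In experiment 1 they differed by -0.43, -0.45, -0.35, -0.41 and -0.41, in order of brightness. In experiment 2 they differed by -0.23, -0.24, -0.36, -0.36 and -0.07. In experiment 3 the values were -0.33, -0.05, 0.01, 0.06 and -0.88. Probe sets 2, 3 and 4, at means of 9.50 to 10.06 in irradiated and 9.74 to 10.30 in control cultures, thus showed almost no difference there. Probe set 5 was dim, at 5.04 in irradiated and 5.49 in control cultures, and its 3 irradiated values spread over 1.87. Averaged over its probe sets, Alcam differed by -0.30. That average includes the dim probe set 5, whose mean difference of -0.45 was the widest of the 5.

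The promoters of Icam1 and Alcam are shown to set an adhesion molecule whose difference changed sign between experiments beside one whose brightest probe set kept its sign. The sequences are RefSeq's for GRCm38.p6, 250 bases before to 50 after the start as that table gives it, and 6 of the 10 members have an entry there. Capitals mark matches, on either strand, to the Sp1 motif GGGCGG, the TATA box TATAAA and a looser NF-kB motif whose first base may be any base. The looser motif was added after the promoters had been read.
Icam1, chr9:21015690-21015989, plus strand: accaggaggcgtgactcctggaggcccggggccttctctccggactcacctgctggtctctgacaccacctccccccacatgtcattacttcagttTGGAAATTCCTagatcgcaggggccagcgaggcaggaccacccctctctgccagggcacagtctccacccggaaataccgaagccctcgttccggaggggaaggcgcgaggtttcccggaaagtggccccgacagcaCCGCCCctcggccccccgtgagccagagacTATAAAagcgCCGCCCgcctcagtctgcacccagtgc
Alcam, chr16:52453032-52453331, minus strand: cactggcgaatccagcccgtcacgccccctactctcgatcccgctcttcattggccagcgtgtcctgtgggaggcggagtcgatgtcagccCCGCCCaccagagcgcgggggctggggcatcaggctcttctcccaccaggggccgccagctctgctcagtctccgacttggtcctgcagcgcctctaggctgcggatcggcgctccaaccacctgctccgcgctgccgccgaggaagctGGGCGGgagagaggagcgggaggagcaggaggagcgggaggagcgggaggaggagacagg

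In the Icam1 window the looser NF-kB motif matched at position -154 from the start as TGGAAATTCC, with an overlapping match on the other strand. It is found in 13.3% of the 32851 promoters in the table. The strict NF-kB motif, present in 4.51% of promoters, matched none of the 6 windows, nor did the AP-1 motif TGANTCA (7.81%) or the serum response element (1.63%). The Icam1 window held Sp1 matches at positions -17 and 24 and the letters TATAAA at position 14, so the TATAAA match and the second Sp1 match lie downstream of the start used. The Sp1 motif occurs in 35.7% of promoters and TATAAA in 13.6%. The Alcam window held Sp1 matches at positions -159 and -10 and none to the other motifs. Mcam had 5 Sp1 matches and the looser NF-kB motif, Cd44 had 1 Sp1 match, and the Eng and Pdgfra windows had no match to any motif searched. A match describes the letters and is not evidence of binding.

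Mcam, an adhesion molecule of pericytes, endothelium and bone marrow stroma that binds the laminin chain Lama4, was near the level called expressed. It read 6.26, 5.95 and 5.93 in irradiated cultures, against 6.17, 6.49 and 6.69 in controls. In experiments 2 and 3 the irradiated cultures were lower, by 0.54 and 0.76, while in experiment 1 they were higher by 0.09. The difference was -0.40 ± 0.17 (SE, 95% interval -0.81 to 0.0019; limma unadjusted p = 0.0508, adjusted p = 0.619). It was -0.65 without experiment 1 and -0.23 without experiment 3. The 10 pericyte and smooth muscle markers, which share a cell type with Mcam, had a median of -0.09, with 4 of 10 expressed.

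Thy1, a small GPI-anchored protein often used to define cultured stromal cells, was dim on its single probe set. It read 3.76, 4.18 and 4.26 in irradiated cultures, against 4.00, 4.14 and 4.18 in controls. All 6 values lay below the level called expressed, so its difference of -0.04 (95% interval -0.30 to 0.22) says little about the transcript. It was the single member gene whose brightest probe set was dim in both groups.

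Cd44, the hyaluronan receptor, was bright on probe sets 1 and 2. Probe set 1 read 10.66, 10.42 and 10.71 in irradiated cultures, against 10.77, 10.55 and 10.41 in controls. Probe set 2 read 9.71, 9.65 and 9.61 in irradiated cultures, against 9.85, 9.70 and 9.18 in controls. On both, irradiated cultures were slightly lower in experiments 1 and 2 and higher in experiment 3, by 0.30 and 0.43, and the low control of experiment 3 gave probe set 2 its widest gap. The mean differences were 0.02 (95% interval -0.27 to 0.31) and 0.08 (95% interval -0.24 to 0.40). Probe set 3 differed by -0.07 in every experiment, and probe set 4 was dim at 2.39 in irradiated and 2.53 in control cultures. The direction for Cd44 turned to -0.12 without experiment 3 and to -0.05 with array weights.

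Eng, the TGF-beta family co-receptor endoglin, gave the narrowest difference among the members by their brightest probe sets. Probe set 1 read 7.41, 7.11 and 7.13 in irradiated cultures, against 7.34, 7.20 and 7.12 in controls. The groups overlapped and the mean difference was 0.00 (95% interval -0.23 to 0.23). Probe set 2 differed by 0.04, 0.26 and 0.00, a mean of 0.10 ± 0.10 (SE).

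The brightest probe sets of the PDGF receptors had mean differences of opposite sign, a contrast that was not tested, and in experiment 3 both were lower. Pdgfrb 1 read 10.53, 10.42 and 10.34 in irradiated cultures, against 10.79, 10.65 and 10.70 in controls. Every irradiated array lay below every control array, which holds for 4.82% of all probe sets. The difference was -0.28 ± 0.10 (SE, 95% interval -0.51 to -0.05), a level 1.22-fold lower (limma unadjusted p = 0.0226, adjusted p = 0.575). It was -0.26, -0.23 and -0.36 by experiment, and with an experiment left out its unadjusted p ran from 0.0561 to 0.0799. Pdgfrb 2 read 7.40, 7.13 and 7.17 in irradiated cultures, against 7.50, 7.31 and 7.34 in controls, lower by 0.10, 0.18 and 0.17 in the paired experiments, although the groups overlapped. Its difference was -0.15 ± 0.09 (SE).

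Pdgfra 1 read 8.93, 9.02 and 8.74 in irradiated cultures, against 8.50, 8.47 and 8.99 in controls. It was higher in irradiated cultures by 0.43 and 0.55 in experiments 1 and 2 and lower in experiment 3, where the difference was -0.25. The mean was 0.24 ± 0.17 (SE, 95% interval -0.16 to 0.64; limma adjusted p = 0.73), and it was 0.49 without experiment 3 and 0.09 without experiment 2. The other probe sets of Pdgfra had smaller mean differences. Pdgfra 2 differed by -0.05, 0.05 and -0.04, and all of its 6 values lay between 7.11 and 7.17. Pdgfra 3 differed by 0.22, -0.03 and -0.41. Within an array, Pdgfra 1 minus Pdgfrb 1 was higher in irradiated cultures by 0.69, 0.78 and 0.11, a pair named after its values were seen. Fat cell markers, whose precursors carry Pdgfra, had list medians of 0.28, 0.02 and -0.28 in the same experiments, and their part in the Pdgfra values was not tested.

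**Figure D3:**
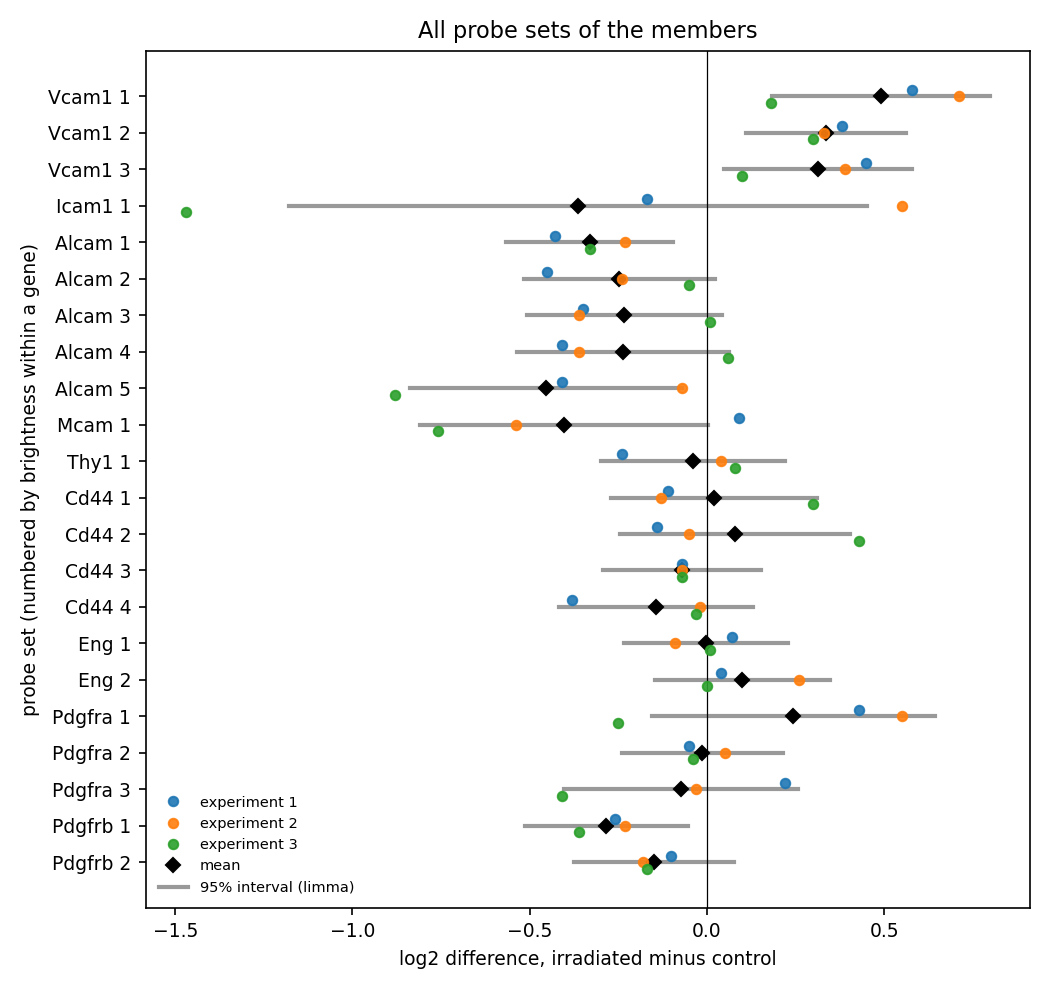
Log2 difference, irradiated minus control, for all 22 probe sets of the members, with each experiment as a point, the mean as a diamond and the limma 95% interval as a bar. The 3 probe sets of Vcam1 lie above 0 in every experiment and both of Pdgfrb below 0, while Icam1 spans -1.47 to 0.55.

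Over the 22 probe sets, 10 (45.5%) had differences of the same sign in all 3 experiments, beside 29.1% of all probe sets and 36.8% of those expressed. Of these 10, 3 were higher (15.3% of all probe sets), all of Vcam1, and 7 were lower (13.8%), namely Alcam 1, Alcam 2 and Alcam 5, Cd44 3 and Cd44 4 and both of Pdgfrb. The groups did not overlap in 5 (22.7%), beside 9.34% of all probe sets. These were the 3 of Vcam1, Pdgfrb 1 and the dim Cd44 4. The median difference over the 22 was -0.07, against 0.01 over all probe sets, and the median size of the difference was 0.24, against 0.10. The counts rest on genes with several probe sets, and by the brightest probe set 3 of 9 genes (Vcam1, Alcam and Pdgfrb) kept 1 sign, beside 30.8% of all genes. The number of member probe sets at an unadjusted p under 0.05 was 1 without experiment 1 (Mcam), where 3.76% of all probe sets had such a p. It was 3 without experiment 2 (Vcam1 2, Alcam 1 and Alcam 5), beside 6.02% of all, and 8 without experiment 3, beside 8.32%. The 1 of 22 without experiment 1 is thus near the share over all probe sets. Since the members were chosen with earlier results of these data known, none of these counts is evidence about the group.

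The genes that work with these surface proteins were read from 7 lists, with 109 of 117 genes measured and 77 expressed. None passed adjustment over all probe sets, where the share called was 0.0%. With an unadjusted p under 0.05, 9 genes were higher and 5 lower, beside 3.7% and 4.61% of all genes by their brightest probe set. The counts given below for each list are to be read beside the same shares. The median difference of the 109 was 0.00, against 0.01 over all genes.

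Among the integrin receptors, selectins and other Icam proteins, none of 15 measured genes had an unadjusted p under 0.05 in either direction. The list median was -0.01 and 7 of 15 were expressed. The beta1 chain Itgb1, which pairs with alpha4 to bind Vcam1, differed by 0.10 ± 0.09 (SE). The alpha4 chain Itga4 was dim, at 4.76 in irradiated and 4.59 in control cultures. Itgal, the alpha chain of the main Icam1 receptor of leukocytes, differed by -0.13 ± 0.10 (SE), or -0.08 without experiment 1. Itga9, another partner of the beta1 chain that binds Vcam1, differed by -0.09 ± 0.12 (SE), and this was 0.005 without experiment 1, -0.235 without experiment 2 and -0.03 without experiment 3. The endothelial selectin Sele was dim in both groups, at 3.15 in irradiated and 3.08 in control cultures.

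Of 14 junctional and neural immunoglobulin proteins, 0 were higher and 2 lower at an unadjusted p under 0.05, with a list median of -0.01. The nectin Nectin2, which joins epithelial and other cells at adherens junctions, read 6.20, 5.83 and 5.62 in irradiated cultures, against 6.55, 6.05 and 6.31 in controls. Its difference was -0.42 ± 0.12 (SE, limma adjusted p = 0.546). Nectin2 counted as expressed through the controls alone, with means of 5.88 in irradiated and 6.30 in control cultures. The tight junction protein F11r gave 0.02, -0.39 and -1.03 by experiment, with a mean of -0.47 that was -0.71 without experiment 1 and -0.185 without experiment 3. Ncam1, the neural cell adhesion molecule, was higher in each experiment, by 0.17 on average.

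Of 14 measured ligands, partners and sheddases of Cd44, 3 were higher and 0 lower at an unadjusted p under 0.05, while Cd44 itself showed little difference on its bright probe sets. Ezr, the linker ezrin that ties Cd44 to actin, read 9.43, 9.15 and 9.38 in irradiated cultures, against 8.94, 8.65 and 8.95 in controls. Every irradiated array of Ezr lay above every control array, which holds for 4.53% of all probe sets. The difference of 0.47 ± 0.09 (SE, limma adjusted p = 0.53) was 0.49, 0.50 and 0.43 by experiment. The other linkers of its family, Rdx and Msn, differed by 0.10 and -0.08. Has2, an enzyme that makes hyaluronan, read 10.06, 9.28 and 9.84 in irradiated cultures, against 9.62, 8.97 and 8.40 in controls. It was higher in each experiment by 0.44, 0.31 and 1.44, a mean of 0.73 ± 0.22 (SE, limma adjusted p = 0.558) that was 0.38 without experiment 3. Lgals9, a galectin that binds Cd44, was higher by 0.36 ± 0.10 (SE). The sheddases Adam10, Adam17 and Mmp14 differed by -0.14, 0.01 and 0.02.

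Of the 18 receptors, ligands and Smads around endoglin, 3 were higher and 1 lower at an unadjusted p under 0.05. The list median was 0.10, and 7 were higher in all 3 experiments and 1 was lower, beside 15.7% and 15.1% of all genes. The ligand Tgfb2 read 8.23, 8.07 and 7.91 in irradiated cultures, against 8.00, 7.54 and 7.38 in controls, a difference of 0.43 ± 0.11 (SE, limma adjusted p = 0.538). The type II receptor Acvr2a was higher by 0.45 ± 0.14 (SE), or 0.26 without experiment 3, and the signal carrier Smad1 by 0.67 ± 0.11 (SE). Tgfb1, the lower gene of the list, differed by -0.44, -0.01 and -0.43. The endothelial type I receptor Acvrl1, through which endoglin acts in vessels, was dim at 4.06 in irradiated and 3.99 in control cultures.

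Of 14 PDGF ligands and signalling genes, all expressed, 1 was higher and 1 lower at an unadjusted p under 0.05, with a list median of 0.00. Pdgfrl, a receptor-like protein related to them in sequence, was higher by 0.27, 0.27 and 0.24, and the kinase Src was lower in each experiment, by 0.29 on average. Sos1, which activates Ras downstream of the receptors, differed by -0.22 ± 0.12 (SE), or -0.095 without experiment 3. The ligand genes varied between experiments, with Pdgfa at -0.13, -0.50 and 0.51 and Pdgfb at -0.04, -0.09 and 1.04. Pdgfc and Pdgfd had means of -0.05 and 0.00.

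Of 10 measured Ly6 and GPI-anchored proteins, 0 were higher and 1 lower at an unadjusted p under 0.05, and 4 were expressed. The lower gene was Cd24a, a small mucin-like marker of early fat cell progenitors, which read 10.59, 10.03 and 10.03 in irradiated cultures, against 10.77, 10.52 and 10.65 in controls, a difference of -0.43 ± 0.12 (SE, limma adjusted p = 0.538). Ly6e, a relative of Ly6a, differed by -0.13 ± 0.10 (SE), or -0.055 without experiment 3. The urokinase receptor Plaur differed by -0.28 ± 0.13 (SE), which was -0.43 without experiment 2 and -0.155 without experiment 3.

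Of 24 other stromal surface markers measured, 2 were higher and 0 lower at an unadjusted p under 0.05, and the list median was 0.02. The laminin receptor chain Itga6 was higher by 0.42, 0.31 and 0.25, and Nt5e, the ectoenzyme that makes adenosine and a common marker of cultured stromal cells, by 0.30, 0.11 and 0.32. Pdpn, a mucin-type protein of fibroblastic stroma, differed by -0.19 ± 0.11 (SE).

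**Figure D4:**
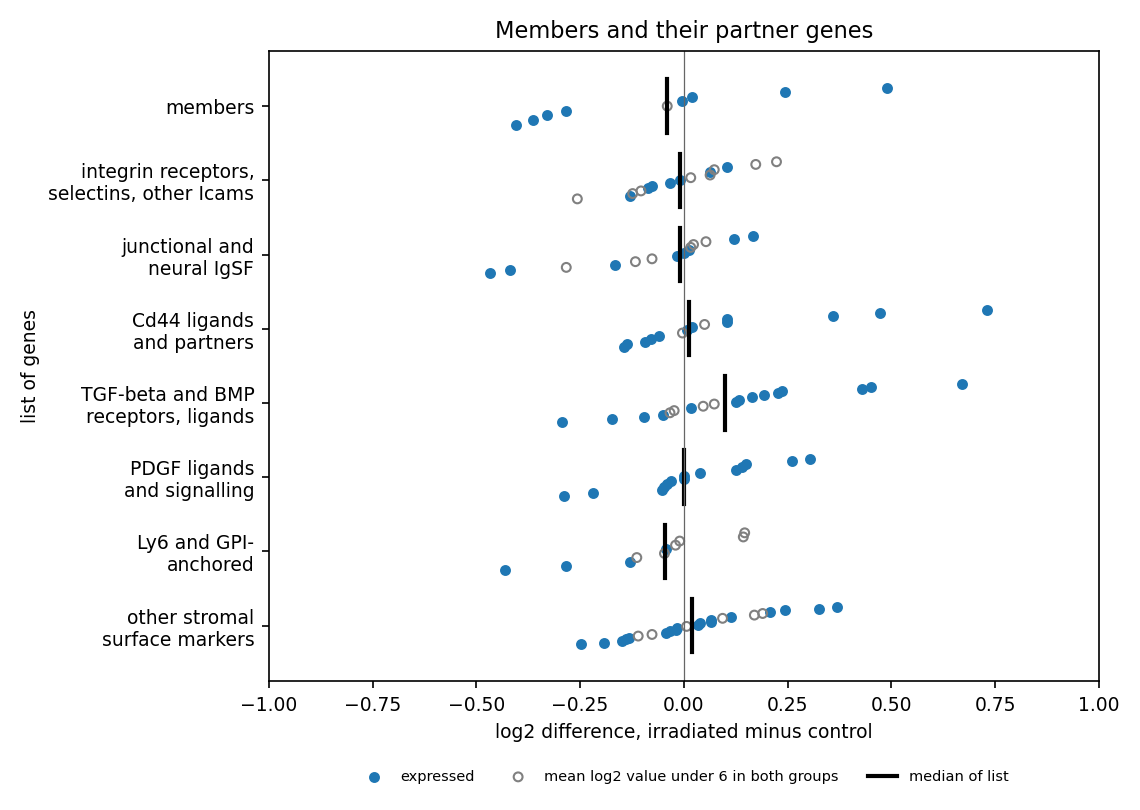
Log2 difference, irradiated minus control, of the 9 members and of 7 lists of partner genes, with each gene as a point (open where the mean log2 value was under 6 in both groups) and the median of each list as a bar. List medians lie between -0.045 and 0.10, and the points furthest from 0 are Has2 at 0.73 and Smad1 at 0.67.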

How the data were processed

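The deposited file holds a log2 value for each probe set and array, to 2 decimals, which the authors made with RMA and affy, with limma also named, per the submitters' processing notes. Their versions and a genome build are not stated there. Probe sets were named by the platform annotation, and 64 array controls were set aside, leaving 45037. The brightest probe set stood for a gene, giving 18193 genes.

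The groups were compared in limma 3.58.1 under R 4.3.3 (lmFit and eBayes, two-sided, with Benjamini-Hochberg adjustment across all 45037 at a threshold of 0.05) with the experiment as a block, because the design text states the pairing. Deviations from the group means correlated at 0.787, 0.028 and 0.324 for the 3 pairs, while the irradiated array of experiment 2 and the control of experiment 3 correlated at 0.552, so only the pair of experiment 1 stood apart in the values. Residual degrees of freedom were 2 and those of the prior 4.52. The fit was tested on simulated pairs. From each partner list up to 3 expressed genes with the largest moderated statistic are named, and others are named as family members or defining markers after their values were seen. The members and lists were chosen with earlier results of these data known. The alternatives left out the block, made it random, dropped each experiment in turn or dropped dim probe sets, and also tried quantile normalization, median centring, an intensity trend, array weights and other ways to represent a gene. Figures were drawn with matplotlib 3.10.9.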

Additional observations from a re-analysis of the deposited data

Results flagged for a closer look

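The hybridisation controls, 18 probe sets for spiked-in transcripts that enter no comparison, gave a signal above the control array in experiment 3. Their mean log2 signal was 11.73 on the irradiated array of experiment 3 and 11.23 on its control array, a difference of 0.502. In experiments 1 and 2 the difference was 0.08 and -0.03. Among the members, Alcam 3, Alcam 4, Cd44 1, Cd44 2 and Pdgfra 1 had in experiment 3 the opposite sign to experiments 1 and 2, and Icam1 its widest difference. The part of hybridisation in these values was not tested.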

How the results depend on the processing

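No member and no partner gene passed the adjusted threshold under any of the 12 alternatives. Over all probe sets 2 passed with the experiment as a random block and 0 under the other alternatives. Without the replicate block the members at an unadjusted p under 0.05 again numbered 6, with Mcam in place of Alcam 5. Over all probe sets the count at an unadjusted p under 0.05 was 3631 of 45037 (8.06%), against 2168 without the replicate block. It was 1692 to 3748 with an experiment left out and 4824 with array weights. Other alternatives tested fewer rows. The count was 2260 of 16431 (13.8%) with dim probe sets left out and 1692 of 18193 (9.3%) with 1 probe set per gene. It was 1478 of 18193 with the mean over a gene's probe sets. The count of member probe sets was 6 of 22, and the share over all probe sets tested was 8.06%. With array weights the count was 10 of 22, beside a share over all of 10.7%. It was 3 of 9 with 1 probe set per gene, beside 9.3%. With an experiment left out it was 1 to 8 of 22, beside 3.76% to 8.32%. The count of partner genes was 14, against 7 without the replicate block and 7 to 13 with an experiment left out. Fewer probe sets tested or fewer experiments account by construction for part of these, and the other causes were not tested. Vcam1, Alcam, Mcam, Pdgfra and Pdgfrb kept their direction under all 12 alternatives, with Vcam1 at 0.38 to 0.65 and Pdgfrb at -0.31 to -0.22. The block, the intensity trend, dropping dim probe sets and testing 1 probe set per gene leave the mean difference unchanged by construction. Those alternatives could therefore not change a direction. For Vcam1, Alcam and Pdgfrb the brightest probe set kept 1 sign in all 3 experiments. Leaving out an experiment or weighting the arrays could thus not change their direction either. Pdgfra ran from 0.05 to 0.49 and Mcam from -0.65 to -0.23, and both differed in sign between experiments. With an experiment left out, Icam1 ran from -0.82 to 0.19, Thy1 from -0.10 to 0.06, Cd44 from -0.12 to 0.10 and Eng from -0.04 to 0.04, so all 4 turned sign. Cd44 was -0.045 with array weights and -0.028 as the mean over its probe sets. Eng was 0.0025 with quantile normalization, 0.0076 with array weights and 0.048 as the mean over its probe sets. Thy1 was left out with the dim probe sets. Signal near background limits Thy1, Cd44 4 and Alcam 5.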
